A study of Sus scrofa with 6 samples.

Results

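The genes of ubiquitin ligases, ubiquitin-conjugating enzymes and deubiquitinases were examined in a list of regions whose DNA methylation differed between a glycolytic and an oxidative pig muscle. They were taken by symbol from the deposited list of differentially methylated regions (DMRs), as genes with a promoter, exon or intron DMR whose symbol begins with *UBE*, *UBR*, *USP* and a digit, *TRIM*, *RNF*, *HECW*, *HECTD*, *HERC*, *NEDD4*, *FBXO*, *FBXL*, *FBXW*, *CUL* or *ASB* and a digit, *KLHL* or *MARCH*. *PARK2* was left out. This gave 81 of 3513 genes with a symbol and such a DMR, and 123 of 15633 DMRs in all, of which 90 lay in introns, 20 in exons, 11 in promoters and 2 just downstream of a gene. No DMR belonged to more than 1 of these genes. The symbols decide membership, and not every protein is a ligase or a deubiquitinase. *USP6NL* encodes a GTPase-activating protein of Rab GTPases, *RNF103-CHMP3* is a readthrough gene that joins a ligase to a subunit of the membrane-severing ESCRT machinery, and *UBE2F* conjugates NEDD8, a relative of ubiquitin.

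DNA methylation was profiled by sequencing fragments captured with an antibody to methylated cytosine (MeDIP-seq), in 3 libraries of the mainly glycolytic *longissimus dorsi* of the back (LDM) and 3 of the more oxidative *psoas major* of the loin (PMM). The group of each library was taken from its title and tissue label, while the source label of all 6 names the *longissimus dorsi*. All samples came from female Landrace pigs, 210 days old, and the study describes the pigs as shared between the muscles. The value analysed is the mean read depth per CpG of a DMR, scaled for each library by the authors. A fragment is captured more readily the more methylated cytosines it carries, so depth is a measure of methylated DNA and not a percentage of methylation. Whole muscle was used, so a difference within fibres and a difference in the mixture of cells cannot be told apart. Expression was not analysed here, and the muscles could not be checked against marker genes.

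Ubiquitin is attached to proteins in a relay. An activating enzyme (E1) passes it to a conjugating enzyme (E2), and a ligase (E3) brings the charged E2 to the substrate. HECT ligases take the ubiquitin over before handing it on, while most RING ligases, among them many TRIM and RNF proteins, transfer it directly. Cullin ligases are assembled on a scaffold with exchangeable F-box, ASB or KLHL receptors that choose the substrate. Deubiquitinases of the USP family remove it. In skeletal muscle the pathway is best known for the loss of myofibrillar protein during atrophy, in which the F-box protein atrogin-1, encoded by *FBXO32*, takes part.

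The member DMRs measured 19 to 1925 bp with a median of 138 bp, and held 1017 CpGs. Taken over these regions, median depths in replicates 1, 2 and 3 were 27.5, 26.3 and 29.5 for LDM, and for PMM they were 26.0, 24.2 and 23.7. The mean of these medians was 27.8 ± 1.61 in LDM and 24.6 ± 1.18 in PMM (SD, n = 3), a difference of -0.17 on the log2(depth + 1) scale (exact permutation test, two-sided p = 0.1, the smallest that 3 against 3 allows). Relative to the median of all listed DMRs in the same library, the difference was -0.02 (exact permutation test, two-sided p = 0.9). Across the member DMRs, log2 depths correlated at 0.935 to 0.959 between libraries of the same muscle and at 0.341 to 0.595 between libraries of different muscles, where the points are regions and not replicates. Among the member DMRs that were lower in PMM, replicate 2 was the lowest PMM library in 35 of 58 (60.3%, against 57.0% of all listed losses). Its part in these differences was not tested beyond leaving it out.

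Over the whole group the DMRs were split almost evenly between the muscles. In PMM, 65 of 123 were higher and 58 were lower (limma on log2(depth + 1), Benjamini-Hochberg adjustment over all listed DMRs, threshold 0.05). That is 52.8% and 47.2%, beside 55.9% called higher and 44.0% called lower among all 15633 DMRs. When a trend of depth on CpG density was subtracted, 24 were called higher and 42 lower. With the DMRs of each gene averaged, 41 genes were higher and 40 lower (50.6% higher, against 49.6% of all genes with a symbol). The LDM and PMM libraries did not overlap in any member DMR, as in 100% of the listed DMRs. Since the regions were selected for such a difference on these same libraries, the calls are not independent evidence, and they describe its size against the spread between libraries.

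At the authors' scaling, gains in PMM were smaller than losses. The median fold was 1.78 for DMRs that were higher and 2.79 for those that were lower, against 1.8 and 2.61 over all listed DMRs, with each fold computed after adding 1 to the depth, so that changes at low depth are understated. No gain exceeded 4-fold, the largest being 3.89-fold in *HECW2*. Losses above 4-fold numbered 7, up to 7.27-fold in *TRIM2*. Among all 15633 listed DMRs, 36 gains and 775 losses exceeded 4-fold, so this asymmetry is shared with the whole list. The median log2 difference of the member DMRs was 0.50, against 0.56 over all DMRs, and the median standard error 0.183.

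**Figure D1:**
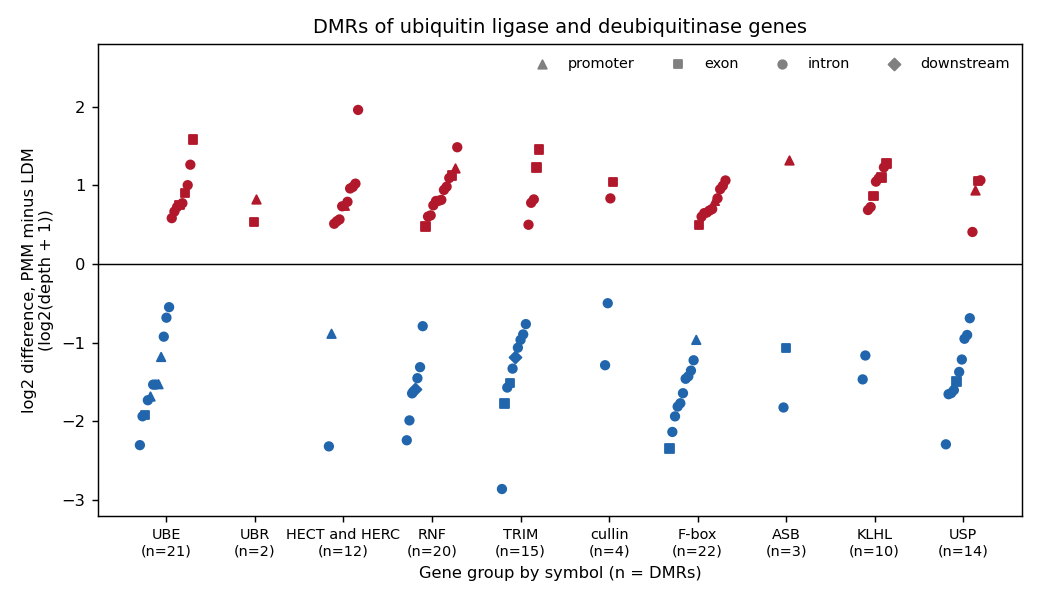
Log2 difference in depth (PMM minus LDM, log2(depth + 1)) of each of the 123 DMRs, by gene group along the x axis. Red points are higher and blue points lower in PMM, and the symbol marks the part of the gene. The *USP* group has 4 points above 0 and 10 below, and the HECT and HERC group has 10 above and 2 below.

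Counts differed between the groups, while 55.9% of all listed DMRs were called higher and 44.0% lower. DMRs of the HECT and HERC ligases (10 higher, 2 lower), the KLHL receptors (8 and 2) and the RNF ligases (13 and 7) lay mostly above 0, though RNF did not net of the density trend, as given below. Those of the USP group (4 higher, 10 lower), the genes with a *TRIM* symbol (5 and 10) and the *UBE* genes (9 and 12) lay mostly below. The groups follow the symbols, so related genes under other symbols are not counted in them. The F-box receptors were divided, with 11 each way. The share higher was 83.3% in HECT and HERC, 80% in KLHL, 65% in RNF and 50% in F-box. In *UBE*, TRIM and USP it was 42.9%, 33.3% and 28.6%. CpG density, the number of CpGs per 100 bp of the DMR, moved with these counts. Its median was 3.9 in the HECT and HERC group, 4.12 in KLHL and 4.83 in RNF, and 6.02 in *UBE*, 6.22 in USP, 6.5 in F-box and 6.69 in TRIM. No difference between the groups was tested.

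Density separated the directions within the members as it did in the whole list. With all listed DMRs divided into 4 equal classes, 31 of 33 members in the sparsest class were higher in PMM (93.9%, against 93.9% of all DMRs of the class). In the next classes it was 18 of 25 (72% against 76.1%) and 10 of 31 (32.3% against 37.1%). In the densest class 6 of 34 were higher (17.6% against 16.7%). Members that went against their class included the *UBE2F* exon DMR, lower with 2.68 CpGs per 100 bp, and the *TRIM46* intron DMR, lower with 3.6. In the densest class, *CUL1*, *KLHL32* and *TRIM15* were among those that were higher.

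A smooth trend of depth on CpG density was then subtracted from each library. Net of this density trend, the 24 calls higher and 42 calls lower made up 19.5% and 34.1% of the members, beside 24.8% and 30.9% of all listed DMRs. Of the members, 61 kept both direction and call (49.6%, against 52.7% of all DMRs) and 5 were called in the other direction, namely 1 DMR each of *FBXO38*, *FBXW11*, *NEDD4L*, *USP24* and *CUL7*. By group, the calls higher and lower became 3 and 2 in HECT and HERC, 3 and 1 in KLHL, 5 and 7 in RNF, 3 and 5 in TRIM, 3 and 9 in *UBE*, 3 and 10 in F-box, and 0 and 8 in USP. The USP group thus had losses only, and RNF changed from more gains than losses to the reverse. The subtraction enlarges gains in the third and densest classes and losses in the sparser ones. In the third class 1446 of all listed DMRs were higher before it, and 1447 were called higher after. In the densest class the counts were 654 and 700. Losses in the sparser classes numbered 239 and 937, with 651 and 950 called lower after. Such gains and losses could hardly fail to pass, so their passing is no further support. This subtraction lowered the median log2 difference of all listed DMRs by 0.66, and quantile normalization lowered it by 0.46, while equal library medians raised it by 0.15.

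**Figure D2:**
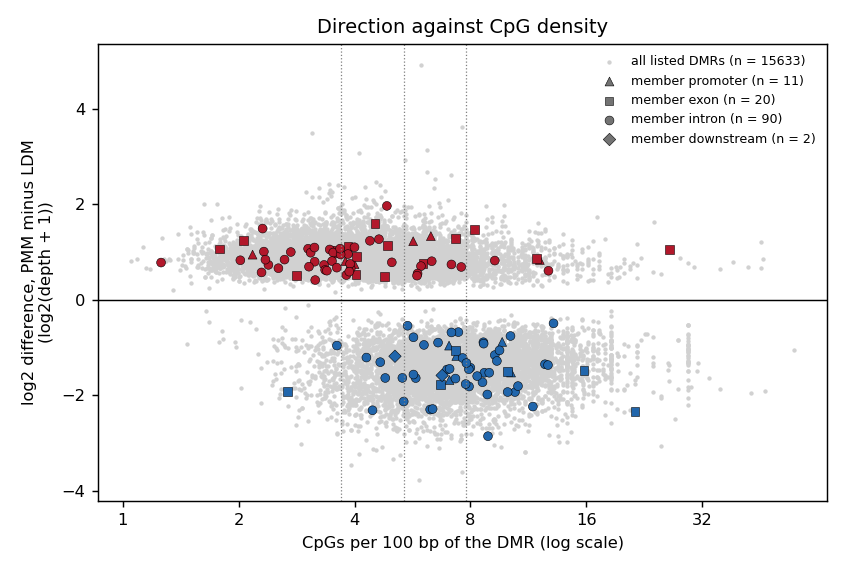
Log2 difference (PMM minus LDM, log2(depth + 1)) against CpGs per 100 bp on a log scale, with all 15633 listed DMRs in grey and the 123 members in colour (red higher, blue lower in PMM, symbol by part of the gene). Dotted lines divide the density classes, and 31 of 33 members left of the leftmost line are above 0, against 6 of 34 right of the rightmost.

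Of the promoter DMRs, 6 were higher and 5 lower in PMM (54.5% higher, against 52.7% of all 478 listed promoter DMRs). The annotation sorts promoters by CpG content into high (HCP), intermediate (ICP) and low (LCP), and into distal, intermediate and proximal zones. Coordinates are those of the pig genome build Sscrofa10.2. The promoter of *UBE2B*, an E2 that works with UBR ligases in the degradation of proteins with certain amino-terminal residues, lost depth in PMM. Its DMR, in the distal zone of an ICP on chromosome 13 from 156758999 to 156759083, had depths of 44.5, 32.3 and 43.3 in the LDM libraries, in order of replicate number, against 14.5, 7.95 and 13.5 in those of PMM. No PMM library came near the lowest LDM library. The log2 difference was -1.69 (SE 0.23, adjusted p of limma 0.000265), 3.22-fold lower, and it remained lower at -1.01 net of the density trend (adjusted p of limma 0.00247).

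*UBE2K*, an E2 that builds the ubiquitin chains read by the proteasome, carried adjoining DMRs in its distal high-CpG promoter on chromosome 8 from 32656193 to 32656241 and from 32656248 to 32656315. In the former the depths were 20.4, 20.5 and 20.9 in LDM against 5.33, 7.68 and 6.65 in PMM (2.89-fold lower), and in the latter 18.8, 17.2 and 17.7 and 7.03, 8.14 and 6.86 (2.27-fold lower). The LDM libraries were close to each other in both, and no PMM library reached 9. A further loss lay in the first intron of the gene, at 26.5, 30.2 and 21.6 against 8.63, 3.2 and 7.53 (3.83-fold). Net of the density trend the latter promoter DMR no longer passed (-0.44, adjusted p of limma 0.0609), whereas the other DMRs of the gene did.

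The remaining promoter losses were smaller. *FBXO11*, an F-box receptor for the transcription factor BCL6, had depths of 12.8, 14.9 and 17.3 in LDM against 6.79, 6.28 and 8.52 in PMM (1.95-fold lower), and *HECW2*, a HECT ligase, 12.7, 12.4 and 13.1 and 7.07, 6.98 and 5.37 (1.85-fold lower) in a proximal promoter of intermediate CpG content. Both had little depth in either muscle. Neither passed after subtraction of the density trend or after quantile normalization, and *HECW2* then had the opposite sign under the former (0.030).

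Among the promoter gains, *ASB11*, a receptor of cullin ligases that limits Notch ligand in zebrafish, was 2.51-fold higher in PMM. Its DMR on chromosome X from 12817023 to 12817117, the only member DMR on that chromosome, had depths of 6.17, 9.33 and 6.83 in LDM against 18, 24.2 and 18.2 in PMM. *RNF40*, a ligase for histone H2B, followed with 11.4, 10.6 and 9.28 in LDM against 23.8, 27.7 and 25.4 in PMM on chromosome 3 from 18084558 to 18084645 (2.33-fold higher). In both genes every PMM library was far above every LDM library, and the density was intermediate (6.32 and 5.68). Net of the density trend, which enlarges gains at such densities, the differences were 1.75 and 1.35 (adjusted p of limma 0.000199 and 0.000159).

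Further promoter gains were 1.92-fold in *USP6NL* (16, 15.9 and 12.6 against 31.1, 29.9 and 26.8), 1.75-fold in the F-box gene *FBXO22* (25.4, 29 and 19.8 against 41.4, 42.3 and 46.8) and 1.67-fold in *HERC3* (51.9, 43.4 and 41.3 against 71.3, 84.7 and 73.8). These were sparser, at 2.17 to 4.0 CpGs per 100 bp, and none passed net of the density trend, which gave -0.076, 0.085 and 0.097.

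**Figure D3:**
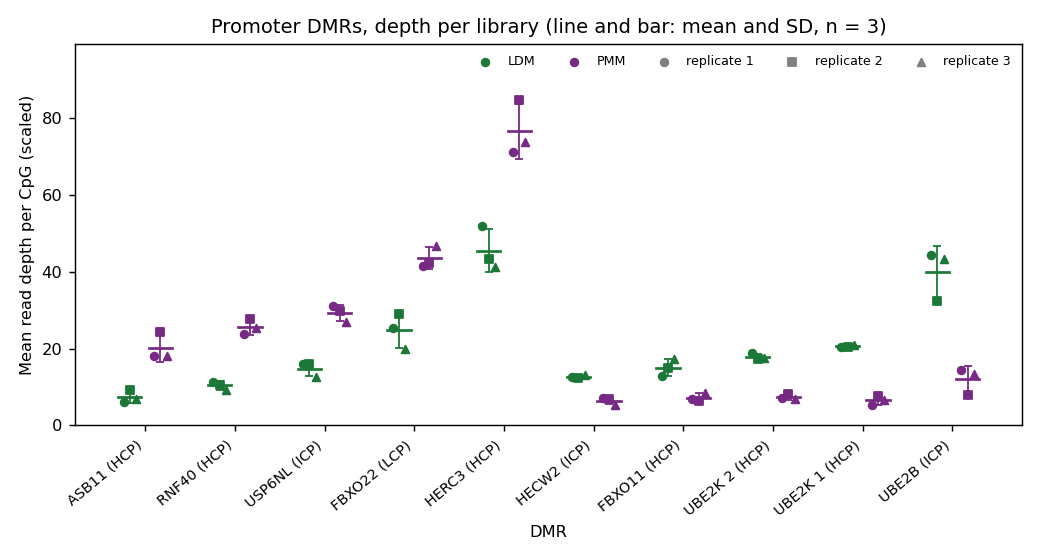
Mean read depth per CpG (scaled) of 10 promoter DMRs in each library, ordered by log2 difference, with LDM in green and PMM in purple, a symbol for each replicate, and lines and bars for the mean and SD (n = 3). The class of the promoter is in brackets, and the 2 adjoining DMRs of *UBE2K* are numbered by position. The 5 DMRs on the left are higher and the 5 on the right lower in PMM, and the libraries of the muscles do not overlap in any.

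In the bodies of the *UBE* genes, the largest loss was in an internal intron of *UBE2F*, which charges cullins with NEDD8, on chromosome 15 from 151991862 to 151992020. Its depths were 24.2, 22.5 and 27.3 in LDM against 2.42, 2.33 and 11.2 in PMM (4.94-fold lower). PMM replicate 3 stood above the other PMM libraries, and without it the loss was 7.58-fold. Without PMM replicate 2 the loss was 3.95-fold. All 3 DMRs of *UBE2F* were lower, including an exon DMR of 6 CpGs at 12.7, 14.5 and 14.2 against 4.24, 1.74 and 3.12 (3.79-fold), and all passed net of the density trend. The largest gain was in an exon of *UBE3B* on chromosome 14 from 43918977 to 43919175, at 21.7, 17.3 and 19.1 in LDM against 51.8, 74.7 and 55 in PMM (3.0-fold higher). *UBE3B* encodes a HECT ligase, counted by its symbol with the *UBE* genes and not in the HECT and HERC group. The other exon DMR of *UBE3B* was 1.68-fold higher (log2 difference 0.75). Both gains passed net of the density trend, which raised the smaller to 1.04. *UBE3D* followed with an intron gain of 2.4-fold that also held.

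Other *UBE* losses lay in *UBE2D4* (3.32-fold), *UBE2O* (2.89-fold) and *UBE2D2* (1.6-fold). Gains in *UBE2E1* (2.01-fold), *UBE2E2* (1.71-fold and 1.59-fold) and *UBE2H* (1.5-fold) all lay in sparse or moderately sparse regions and stood at -0.11 to -0.0036 after subtraction of the trend, without passing. *UBE4B*, which extends ubiquitin chains, had DMRs of both directions. A long intron DMR of 46 CpGs over 1925 bp was 1.65-fold higher, at 26.7, 25.7 and 27.4 against 43.3, 44.3 and 46.4, and a short dense one was 1.9-fold lower. Net of the density trend these stood at -0.28 and -0.033, and neither passed.

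Among the HECT and HERC ligases, the gain in an internal intron of *HECW2* on chromosome 15 from 111234496 to 111234701 was the largest of all members, with depths of 15.1, 4.77 and 9.06 in LDM against 37.2, 39.9 and 34.3 in PMM. The LDM libraries were widely spread, yet the log2 difference was 1.96 (SE 0.32, adjusted p of limma 0.000359) and 1.69 net of the density trend. A neighbouring intron DMR of the gene was 1.97-fold higher, while the promoter of *HECW2*, as above, was lower. *HECW1*, its close relative, gained 2.03-fold in an intron. Neither of these gains passed net of the density trend (0.080 and 0.23). *NEDD4L*, a ligase for the epithelial sodium channel, was 1.48-fold higher and turned to -0.44 net of the density trend (adjusted p of limma 0.00634).

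*UBR2*, a ligase that recognizes amino-terminal residues, was higher in PMM in an exon (1.44-fold, 34, 36.3 and 35.1 against 52.9, 51.2 and 49.4). Net of the density trend its log2 difference was -0.10 and did not pass.

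Among the RNF ligases, the largest gain was in an internal intron of *RNF216*, a ligase mutated in a human syndrome of ataxia and hypogonadism, on chromosome 3 from 4909547 to 4909806, with 5.83, 8.12 and 6.47 in LDM against 23.8, 19.4 and 19.2 in PMM (2.8-fold higher). The lowest PMM library was far above the highest LDM library, although the gain did not pass net of the density trend (0.48). A denser DMR of the gene was also higher (1.76-fold) and another intron DMR lower (3.13-fold). The largest loss was in an internal intron of *RNF157* on chromosome 12 from 5177156 to 5177198, at 27, 25.3 and 30.8 in LDM against 10.18, 1.4 and 7.28 in PMM (4.73-fold lower). Its size rested on PMM replicate 2, without which it was 2.98-fold. In the readthrough gene *RNF103-CHMP3* a pair of intron DMRs fell 2.74-fold and 3.97-fold and an exon DMR rose 2.18-fold, and all 3 passed net of the density trend.

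The TRIM ligases held the largest loss of all members. It lay in an internal intron of *TRIM2*, which ubiquitinates a neurofilament protein in mice, on chromosome 8 from 80337453 to 80337542, with depths of 10.00, 8.29 and 11.9 in LDM against 2.42, 0 and 0 in PMM. PMM replicates 2 and 3 are listed at 0 over these 8 CpGs. The log2 difference was -2.86 (SE 0.50, adjusted p of limma 0.000465), 7.27-fold lower. The loss was 11-fold without PMM replicate 1 and 5.92-fold without PMM replicate 2. A sparse exon DMR of the same gene was 2.35-fold higher, at 13.5, 15.7 and 9.89 against 27.3, 35.7 and 31.9, and did not pass net of the density trend (0.21), whereas the loss did (-1.96). The largest TRIM gain was in an exon of *TRIM15*, on chromosome 7 from 24835638 to 24835698, with 9.0, 5.8 and 6.47 in LDM against 20.4, 22.6 and 19.95 in PMM (2.75-fold higher), and as a dense region it stood at 2.32 net of the density trend. *TRIM34* lost 3.42-fold in an exon inside a CpG island (20.1, 19 and 23.7 against 6.4, 5.1 and 4.79). The pig symbol of this gene in the table is *TRIM6*, a neighbouring family member, so the name is uncertain.

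In the cullin ligases, the scaffold *CUL1* of the F-box ligases was 2.06-fold higher in an exon DMR of only 19 bp on chromosome 9 from 120441311 to 120441329, with 4.0, 6.43 and 6.9 in LDM against 12.1, 12.8 and 13.1 in PMM. *CUL5*, the scaffold of the ASB ligases, had a dense intron DMR that was 2.44-fold lower (29.7, 28.6 and 28 against 17.4, 11.6 and 6.81) and a sparse one that was 1.78-fold higher (11.4, 11 and 15.3 against 22.8, 23.5 and 22.7). Neither passed net of the density trend. The smallest difference of the group was in *CUL7*, at 11.8, 11.2 and 11.4 in LDM against 8.48, 6.98 and 8.11 in PMM (log2 difference -0.50, adjusted p of limma 0.0356). It lost the call without any LDM replicate and without PMM replicate 2 (log2 differences from -0.51 to -0.42), and was called higher, at 0.43, net of the density trend.

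Among the F-box receptors, the largest loss was in an exon of *FBXO38*, described with the other DMRs of that gene below, and next was *FBXO18*, which encodes a DNA helicase with an F-box. Its DMR in the first intron on chromosome 10 from 71211687 to 71211835 had depths of 51.4, 51.6 and 58 in LDM against 29.1, 8.29 and 5.85 in PMM (4.39-fold lower). PMM replicate 1 was far above the other PMM libraries, and without it the loss was 6.84-fold. Without PMM replicate 3 the loss was 3.26-fold. The other intron DMR of the gene was 3.12-fold lower, and both losses passed net of the density trend, which enlarges losses at their densities. The largest gain was in an intron of *FBXO16* on chromosome 14 from 13410856 to 13411020, at 31.2, 25.5 and 19.2 in LDM against 44.8, 57.2 and 58 in PMM (2.09-fold higher), a sparse region that did not pass under the subtraction. *FBXL17*, which clears misassembled BTB protein dimers, had gains of 1.52-fold and 1.99-fold and a loss of 2.69-fold. Net of the density trend its 1.99-fold gain did not pass (0.033), whereas its other gain (1.53) and its loss (-0.59) did. *FBXL20* was lower in a pair of DMRs of the first intron (2.56-fold and 2.75-fold), neither of which passed net of the density trend, and *FBXW11*, a receptor for phosphorylated beta-catenin, was higher in both of its intron DMRs (1.58-fold and 1.62-fold), though the sparser turned to -0.33 net of the density trend.

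Of the other receptors, *ASB1* was 3.53-fold lower in an intron (24.4, 18.7 and 22.6 against 5.57, 2.33 and 11.2) and *ASB13* 2.09-fold lower in its last exon. Neither passed net of the density trend. Of the KLHL genes, *KLHL2*, an actin-binding receptor, had the largest gain, in an exon on chromosome 8 from 45683931 to 45684012 with 13, 15.4 and 13.1 in LDM against 28.5, 41.7 and 35.7 in PMM (2.42-fold higher). The lowest PMM library was well above the highest LDM library. The difference was 2.01 net of the density trend, which enlarges gains at such a density (7.32 CpGs per 100 bp). *KLHL1*, a neuronal actin-binding protein, had the largest loss, in an intron DMR of 16 CpGs at 43.1, 39.6 and 46.1 in LDM against 18.5, 15.8 and 11.2 in PMM (2.76-fold lower), followed by *KLHL28* (2.24-fold). Net of the density trend *KLHL1* passed (-0.82) and *KLHL28* did not (-0.25).

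Genes of the USP group were mostly lower in PMM, in 10 of 14 DMRs (71.4%, against 44.0% called lower among all listed DMRs). The largest loss was in an internal intron of *USP2*, a deubiquitinase of the circadian clock, on chromosome 9 from 51597468 to 51597561, with depths of 25.3, 20.9 and 22.3 in LDM against 9.09, 0.775 and 5.37 in PMM (4.9-fold lower). PMM replicate 2 had almost no reads there, and without it the loss was 2.97-fold. *USP46* was 3.15-fold lower (31.2, 28.8 and 35.1 against 16.2, 5.23 and 9.35). *USP45*, a deubiquitinase of DNA repair, was lower in both of its intron DMRs (1.93-fold and 3.12-fold), as was *USP34*, which stabilizes axin in Wnt signalling (2.32-fold and 2.59-fold). Losses also lay in *USP4* (3.04-fold), *USP41* (2.81-fold, in an exon inside a CpG island), *USP8*, which acts on receptors at endosomes (1.87-fold), and *USP36* (1.61-fold). Of these losses, those of *USP2*, *USP46*, *USP45*, *USP4* and *USP8* and the sparser DMR of *USP34* passed net of the density trend, and *USP36* stood at 0.0048.

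The largest gain of the USP group was in an internal intron of *USP54* on chromosome 14 from 82477241 to 82477458, at 24.6, 38.3 and 34.2 in LDM against 69.2, 76.6 and 58.9 in PMM (2.09-fold higher). It was followed by an exon of *USP19*, a deubiquitinase linked to muscle wasting, with 18.5, 16.9 and 18.9 and 35.1, 44.4 and 37.2 (2.08-fold higher). *USP24* was 1.33-fold higher and *USP6NL*, which is no deubiquitinase, was higher in its promoter. All 4 regions were in the sparsest density class. None passed as higher net of the density trend, and *USP24* was then called lower (-0.48).

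Exon DMRs were higher more often than intron DMRs, with 14 of 20 against 45 of 90. Over all listed DMRs the shares were 69.8% for exons and 56.1% for introns, so the members stood at 70% and 50%. The exon DMRs ran from the 3.0-fold gain in *UBE3B* to the 5.08-fold loss in *FBXO38*. CpG islands overlapped 6 member DMRs, all of them lower in PMM, in *ASB1*, *FBXO38* (2 DMRs), *TRIM34*, *TRIM42* and *USP41*. Among all listed DMRs, 197 of 226 in islands were lower (87.2%), and 5 of the 6 members were in the densest class, in which 83.3% of all DMRs were lower. Downstream of genes, the DMRs of *RNF32* (3.01-fold) and *TRIM3* (2.28-fold) were lower, while the intron DMRs of the same genes were higher.

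Several genes carried more than 1 DMR. Of the 81 genes, 25 had 2 or more (30.9%, against 35% of all genes with a symbol). All DMRs were higher in 7 of these, all lower in 7, and 11 held both directions (44%, against 55.1%). In 8 of the 11 mixed genes, every DMR that was lower was denser in CpGs than every DMR that was higher, a share of 72.7% against 74.5% of the 678 mixed genes in the list. The exceptions were *FBXL17*, *RNF216* and *TRIM3*.

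*FBXO38*, which encodes an F-box coactivator of the transcription factor KLF7, had the most DMRs, 6 over 26 kb of chromosome 2. A long sparse DMR over an exon, of 35 CpGs, was 1.41-fold higher (52.2, 45 and 46.6 against 66.8, 70.3 and 66.8), and the next sparse one 1.57-fold higher. The 4 denser DMRs were lower, by 2.34-fold, 3.83-fold, 5.08-fold and 3.51-fold. The largest of these, in an exon inside a CpG island, had depths of 27.5, 25.2 and 30.2 in LDM against 11.9, 0.775 and 6.76 in PMM. It fell to 2.85-fold without PMM replicate 2 and reached 7.7-fold without PMM replicate 1. Net of the density trend the long sparse DMR was called lower (-0.45), the other sparse one had a difference of -0.029, and the 4 losses still passed.

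*HERC3*, a ligase that works at endosomes, had 5 DMRs over 96 kb of chromosome 8, and all were higher in PMM, by 1.43-fold to 1.95-fold, although -0.20 and -0.095 were found for 2 of them net of the density trend and 1 had a difference of -0.017 after quantile normalization. The largest region, 44 CpGs over 1396 bp in an internal intron, had 62.2, 64 and 57.3 in LDM against 94.6, 108 and 118 in PMM. Only the intron DMR with 7.14 CpGs per 100 bp passed net of the density trend (1.43), and it lost the call under quantile normalization (0.23, adjusted p of limma 0.0932). *KLHL29* had 4 intron DMRs over 50 kb of chromosome 3. All were higher, by 1.61-fold to 2.35-fold, and net of the density trend 1 passed (0.75), 2 did not and 1 had the opposite sign (-0.22).

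**Figure D4:**
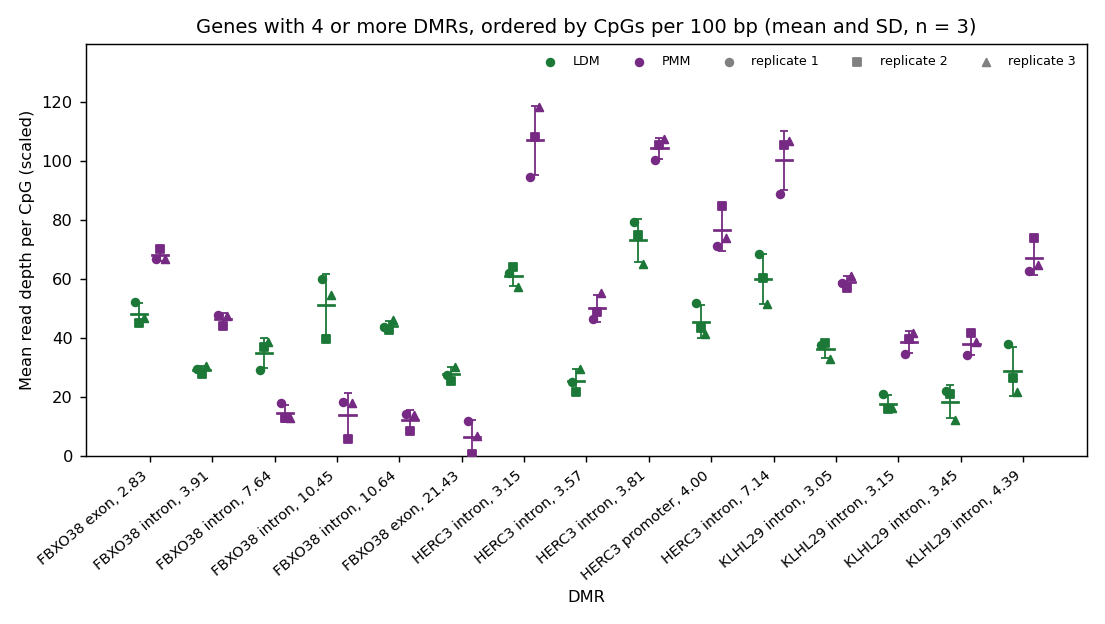
Mean read depth per CpG (scaled) in each library for the DMRs of *FBXO38*, *HERC3* and *KLHL29*, ordered within a gene by the CpGs per 100 bp given on the x axis, with LDM in green and PMM in purple, a symbol for each replicate, and the mean and SD (n = 3). In *FBXO38* the 2 sparsest DMRs are higher and the 4 denser ones lower in PMM, and all DMRs of *HERC3* and *KLHL29* are higher, though 2 of *HERC3* and 1 of *KLHL29* changed sign net of the density trend.

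Genes of the pathway with known roles in muscle formed a list of 54 names, of which 12 had a DMR, 1 each. Of these, 9 were higher and 3 lower in PMM, with a median log2 difference of 0.76. That is 75% higher, beside 55.9% called higher and a median of 0.56 among all listed DMRs. No difference from the whole list was tested. *FBXO32* was 1.6-fold higher in the first intron on chromosome 4 from 16644455 to 16644520, with depths of 25.4, 21.6 and 20.3 in LDM against 33.2, 38.8 and 37.4 in PMM. The libraries of each muscle were close to each other. The difference was 1.46 net of the density trend, which enlarges gains at such a density (7.58 CpGs per 100 bp). *KLHL31*, needed for sarcomere integrity in mice, was 2.15-fold higher in an exon (11.4, 9.79 and 11.6 against 21.9, 24.8 and 27.4). *FBXO31*, a receptor for cyclin D1, was 1.79-fold higher in the first intron (30.8, 21.4 and 21.4 against 40.7, 44.2 and 47). *ASB11*, *CUL1*, *NEDD4L*, *UBR2* and *USP19* were further gains, and *USP2*, *UBE2B* and *UBE2D2*, an E2 of wide use (67.1, 73.6 and 68.3 against 49.2, 45.2 and 35.8), the losses. Net of the density trend, *FBXO32*, *ASB11* and *CUL1* passed as higher and *USP2*, *UBE2B* and *NEDD4L* as lower, *KLHL31* and *USP19* kept their sign, and *FBXO31*, *UBR2* and *UBE2D2* changed it without passing.

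**Figure D5:**
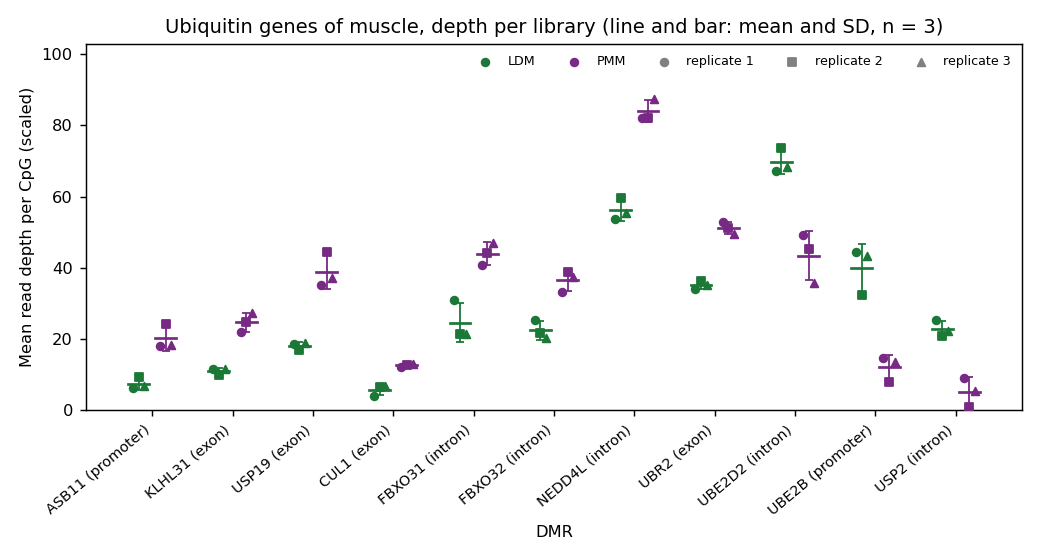
Mean read depth per CpG (scaled) of 11 DMRs in genes of the muscle list, by library, ordered by log2 difference, with LDM in green and PMM in purple, a symbol for each replicate, and the mean and SD (n = 3). The 8 DMRs on the left are higher and the 3 on the right, in *UBE2D2*, *UBE2B* and *USP2*, lower in PMM, and *NEDD4L*, *FBXO31*, *UBR2* and *UBE2D2* changed sign net of the density trend.

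Some members were neighbours on a chromosome, here within 500000 bp, a distance chosen after the data were seen. *HERC3* and *HERC5*, a ligase for the ubiquitin-like protein ISG15, lay side by side on chromosome 8, and all 6 listed DMRs in their span were member DMRs and were higher in PMM. *UBE2F* and *ASB1* on chromosome 15 had 4 member DMRs, all lower, among 12 listed DMRs of the span, of which 8 were lower. *FBXO18* and *ASB13* on chromosome 10 had 3 member DMRs, all lower, beside 2 gains of other regions, and *UBE2E1* and *UBE2E2* on chromosome 13 had 3, all higher, though all 3 were slightly below 0 net of the density trend. Neighbours also differed. *USP19* and *USP4* on chromosome 13 went opposite ways, at 2.08-fold higher and 3.04-fold lower, with 1.78 and 8.33 CpGs per 100 bp. In a cluster of TRIM genes on chromosome 7, *TRIM15* (2.75-fold) and *TRIM40* (1.77-fold) were higher and *TRIM26* (2.97-fold) lower within 49816 bp. Chromosomes 3 and 8 held the most member DMRs, 16 in 8 genes and 15 in 7 genes, out of 1068 and 790 listed DMRs (1.5% and 1.9%).

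Other genes of the pathway, taken from lists by function and not by symbol, also held DMRs of both directions, and no difference between the lists was tested. Of 50 proteasome genes, 5 had a DMR, 1 each, with 4 called higher and 1 lower in PMM. The catalytic subunit *PSMB5* was 1.96-fold higher in its last exon and the promoter of the activator subunit *PSME3* 2.46-fold lower. Of 10 E1 and related activating genes, *SAE1*, a subunit of the SUMO-activating enzyme, and the autophagy gene *ATG7* had DMRs, 1 called higher and 4 lower. Of 77 other ligase genes, 26 had 48 DMRs, 28 called higher and 20 lower, with 10 of the higher and 1 of the lower ones in *MID1* alone. Of 83 partners of cullin ligases, 17 had 23 DMRs, 11 called higher and 12 lower, and of 31 other deubiquitinases, 6 had 7 DMRs, 4 called higher and 3 lower. All DMRs of these lists passed the threshold, as did nearly all listed DMRs, of which 55.9% were called higher and 44.0% lower. The share higher was 58.3% in the other ligases, 57.1% in the other deubiquitinases and 47.8% in the cullin partners. It was 80% and 20% in the proteasome and activating genes, with 5 DMRs each. The calls higher and lower became, net of the density trend, 2 and 1 for the proteasome, 1 and 2 for the activating genes, 15 and 13 for the other ligases, 2 and 9 for the cullin partners, and 0 and 1 for the other deubiquitinases. Of all listed DMRs, 24.8% were then called higher and 30.9% lower.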

How the data were processed

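The authors aligned MeDIP-seq reads to Sscrofa10.2 with SOAP2, kept reads of several locations or duplicates once, dropped CpGs of low depth, and joined CpGs whose depth differed between the muscles into DMRs. The deposited table gives for each selected DMR a coverage signal, the mean read depth per CpG in each of 6 libraries, which the authors scaled by 1 factor per library. On the step of its values, the depth before scaling ranged from 0.825 (PMM replicate 1) to 1 (LDM replicate 1) relative to the deepest library, and 100% of values were whole multiples of the step within 0.1. No library total was used, and since regions without a difference are not analysed here, the share of a gene family that differs cannot be given. The columns of the authors' own comparison (mean depths, P values and false discovery rates) were not used. There were 0 further sample columns.

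Depths were transformed to log2(depth + 1) and PMM was compared with LDM by limma 3.58.1 (R 4.3.3) with a variance trend, without a block, over all 15633 DMRs. P-values were adjusted by Benjamini and Hochberg and called at 0.05, after the script had been tested on simulated data. Library medians were compared by an exact permutation test (scipy 1.17.1). No label ties a replicate number to an animal, so libraries were not paired, although the study describes the pigs as shared. The deviations of same-numbered libraries correlated at 0.0377, 0.241 and 0.0185. Those of different-numbered libraries correlated at -0.212 to 0.181, so these values do not settle the pairing. P-values measure the spread between these libraries. Alternatives were other pseudocounts, a minimum depth, equal library medians, quantile normalization, subtraction of a trend on CpG density, a fit without the variance trend, a replicate block, genes from the first annotation row only, and leaving out each library. Named DMRs were those in promoters, the 2 largest gains and losses of each group, those in genes with 4 or more DMRs or in the muscle list, and the exon extremes. The values of a few members that enter the counts are not reported here. Others named were chosen after their values were seen. The members and lists were chosen with earlier results of these data known. In the table, 37 rows carry a date in place of a symbol, and 2 DMRs with a March date, possibly of a *MARCH* gene, could not be placed.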

Additional observations from a re-analysis of the deposited data

How the results depend on the processing

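All 123 member DMRs kept their direction and call with either other pseudocount and without the variance trend. The most sensitive choice was the trend of depth on CpG density. With it subtracted, 24 member DMRs were called higher in place of 65 and 42 lower in place of 58. The sign then changed in 27 of the 123, and the values of those named by rule were -0.14 in *FBXO31*, -0.45 and -0.029 in the sparse exon and intron DMRs of *FBXO38*, 0.030 in the promoter of *HECW2*, -0.20 and -0.095 in *HERC3*, -0.44 in *NEDD4L*, -0.22 in *KLHL29*, 0.076 in *UBE2D2*, -0.10 in *UBR2*, -0.076 in *USP6NL*, -0.17 in the sparse DMR of *CUL5* and 0.43 in *CUL7*, on the log2 scale. The cause was not tested. Quantile normalization gave 51 higher and 53 lower, with the call lost in 14 members and the sign changed in 5, of which those named by rule were -0.017 in *HERC3* and 0.21 in *CUL7*. Leaving out each library in turn gave 65 DMRs higher each time, 57 to 58 lower, 40 to 41 genes higher by their mean, and a difference of library medians of -0.20 to -0.12. A replicate block gave 65 higher and 57 lower, with *CUL7* lost as a call (adjusted p of limma 0.0642). The numbers share nothing known but the number. Requiring a mean depth of 10 left 115 members, 64 higher and 51 lower, and taking genes from the first annotation row only left 121, 63 higher and 58 lower. Equal library medians gave 65 and 57. Limits on these values are the 3 libraries per muscle and the selection of the regions on the same libraries. Many losses also had low depth in PMM. Every PMM library was under 10 in, among others, the losses of *TRIM2*, *USP2*, *CUL7*, *FBXO11*, *TRIM34*, *UBE2K* and the promoter of *HECW2*. The values used here hold no input or bisulfite measure, so a change in depth cannot be turned into a percentage of methylation.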
